A study of Caenorhabditis elegans with 16 samples.

Results

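The proteasome is the large protease that degrades proteins tagged with ubiquitin. Its genes were followed here in whole Caenorhabditis elegans worms given the soluble fat P-80, RNAi against ech-6, or both. Genes were taken by name: every gene of the expression table whose symbol starts with pas-, pbs-, rpn- or rpt-, together with skn-1. This gave 34 of the 19750 genes in the table, namely 33 subunit genes and skn-1. The core particle had 14 genes, 7 of them pas (alpha ring) and 7 pbs (beta ring). The regulatory particle had 19 genes, comprising 6 rpt genes for the ATPases of its base, 4 rpn genes for the other base subunits, 8 rpn genes for the lid, and rpn-6.2, a second gene named for the RPN-6 subunit.

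The barrel of the core is made of stacked rings of alpha and beta subunits. The alpha rings close the entry, and the proteolytic sites lie inside, on beta subunits. The regulatory particle caps the barrel: its lid and base bind ubiquitin chains and remove them, and the ring of RPT ATPases unfolds the substrate and feeds it into the core. SKN-1 is the worm transcription factor of the Nrf family, known for detoxification genes. Its SKN-1A isoform passes through the endoplasmic reticulum, is processed by PNG-1 and DDI-1, and in worms raises the expression of proteasome subunit genes when the proteasome is impaired.

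There were 4 groups of 4 samples, all of strain N2 (wild type) on day 1 of adulthood, each sample a pool of about 500 whole worms. The groups were ech-6 RNAi + P-80, ech-6 RNAi + vehicle, EV + P-80 and EV + vehicle. RNAi was given by feeding HT115 bacteria from the L1 larval stage. EV bacteria carry the empty vector, the vehicle was water, and P-80 is polysorbate 80, a detergent with an oleic acid moiety. All groups therefore shared the HT115 diet. The concentration of P-80 in these samples was not given in the sources used here. The study asked how the enoyl-CoA hydratase gene ech-6, proposed to act in the breakdown of branched-chain amino acids, modifies the response to dietary fat. RNA came from whole worms, so less RNA per cell and fewer cells of a type cannot be told apart.

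Values are log2 CPM, the log2 of read counts scaled to a common library size. CPM values are these values with the log undone. Reads on genes totalled between 15306307 and 28129104 per sample, and the subunit genes had between 570 reads (rpn-6.2) and 11079 reads (rpn-2) in single samples. The targeted gene, ech-6, was lower in 7 of the 8 libraries labelled ech-6 RNAi than in any EV library. It had 63.1, 68.3, 72.3 and 61.0 CPM in ech-6 RNAi + P-80, and 68.3, 66.4, 178 and 71.8 CPM in ech-6 RNAi + vehicle, against 210, 237, 176 and 187 CPM in EV + P-80 and 181, 169, 165 and 164 CPM in EV + vehicle. The library labelled ech-6 RNAi + vehicle replicate 3, with 178 CPM, thus sat at the level of the EV libraries. The main results on the members that rest on it are therefore given with and without it. Counts and sums for the tissue markers and for other complexes were not recomputed without it. Markers of intestine, germline, oocytes, sperm, body wall muscle, cuticle and neurons were all detected.

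Subunit mRNAs were present at similar levels once gene length was taken into account. Per kilobase of exons, 28 of the 32 subunit genes other than rpn-6.2 lay within 1.5-fold of their median of 98.9 CPM per kb. Levels ran from 58.5 ± 2.83 CPM per kb for rpn-13, which encodes a ubiquitin receptor, to 163 ± 6.96 CPM per kb for pas-2, an alpha subunit (SD over all 16 samples). The next highest gene, pas-5, had 158 ± 6.38 CPM per kb, and its difference from pas-2 was not tested. Core genes had a median of 107 CPM per kb (75.1 for pas-6 to 163 for pas-2) and regulatory particle genes other than rpn-6.2 a median of 93.1 (58.5 for rpn-13 to 121 for rpn-2). The ranges of the particles overlap. Exon lengths came from a later annotation release than the one used for counting, and a gene's exons can belong to several transcripts, so these levels are approximate.

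Among the core genes, the 3 whose products carry the proteolytic sites were not set apart by their level. The caspase-like subunit gene pbs-1 had 106 ± 4.28 CPM per kb and the trypsin-like subunit gene pbs-2 had 109 ± 4.60 CPM per kb. The chymotrypsin-like subunit gene pbs-5 was higher, at 140 ± 5.17 CPM per kb, close to pas-3 (142) and pbs-7 (142). The lid was the most even group, its 8 genes spanning 1.39-fold from rpn-6.1 (73.1 CPM per kb) to rpn-7 (102 CPM per kb). The deubiquitinase gene of the lid, rpn-11, had 83.9 ± 4.11 CPM per kb.

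The gene rpn-6.2 stood below all other subunit genes, at 24.0 ± 0.960 CPM per kb. It lies on chromosome III, from 8999817 to 9001999 on the minus strand (WBcel235), with 6 exon blocks. Its namesake rpn-6.1, on the same chromosome and strand from 6959110 to 6962001, was 2.75-fold to 3.40-fold higher per length in every one of the 16 samples. The pair are related genes, so reads shared between them could shift both values. Of the other members, pbs-7 overlaps exons of another gene of the table on the same strand, and 16 of the 34 lie within 500 bp of a protein-coding neighbour on their strand. The 34 genes are spread over 5 chromosomes, with 10 on I, 7 on II, 8 on III, 4 on IV and 5 on V.

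**Figure D1:**
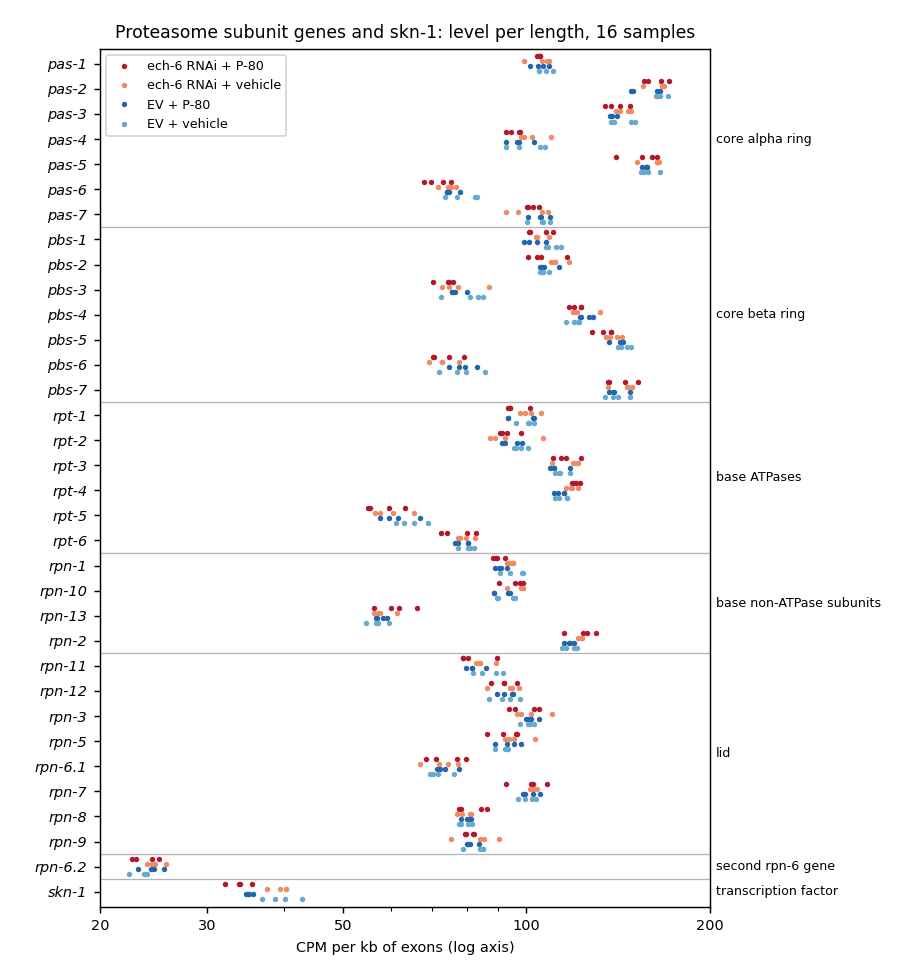
Level of each proteasome gene and of skn-1 in CPM per kb of exons (horizontal log axis), 1 row a gene, 1 point a sample, coloured by group. Most subunit genes lie within 1.5-fold of 98.9 CPM per kb in all groups, while rpn-6.2 and skn-1 (37.0 CPM per kb) lie below, and the skn-1 points of both P-80 groups lie to the left of those of their vehicle groups.

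With P-80 in EV worms, no subunit gene passed the test. None of the 33 subunit genes passed an adjusted p of 0.05 (limma's moderated test, two-sided, Benjamini-Hochberg over all 19750 genes), whereas 16.1% of all genes did. Among the 3802 genes whose mean level lies within the range of the subunit genes, 26.4% passed. At an unadjusted p under 0.05 there were 2 subunit genes, pbs-1 and rpn-1, and limma with voom weights on the recovered reads called 0. The median log2 fold change of the subunit genes was -0.02, beside -0.0025 over all genes. Single values ran between -0.10 (pbs-1) and 0.06 (pbs-4), and the 95% intervals of all 33 genes stayed between 0.870-fold and 1.12-fold.

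These extremes were both in the beta ring and had opposite signs. The gene pbs-1, on chromosome IV from 1708814 to 1709745 on the minus strand, had 83.2, 81.6, 88.4 and 85.7 CPM in EV + P-80, against 93.7, 88.6, 91.9 and 89.1 CPM in EV + vehicle. All 4 P-80 samples were below all vehicle samples, by a narrow gap (88.4 against 88.6 CPM). Its log2 fold change was -0.10 ± 0.043 (SE), with an adjusted p of 0.126 (limma). The noncatalytic beta subunit gene pbs-4 had 103, 101.4, 98.2 and 98.5 CPM in EV + P-80, against 97.4, 95.8, 97.8 and 93.1 CPM in EV + vehicle. Here all P-80 samples were above all vehicle samples, with a log2 fold change of 0.06 ± 0.041 and an adjusted p of 0.349 (limma). Groups thus did not overlap for 2 of 33 subunit genes, while 19% of all genes had groups that did not overlap.

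The subcomplexes differed little in this comparison. All 7 pas genes and all 6 rpt genes had values below 0 (medians -0.05 and -0.03), as did 4 of 7 pbs genes (median 0.00) and 3 of 4 other base genes (median -0.01). Of the 8 lid genes, 2 were below 0 (median 0.01). The highest of the lid was rpn-6.1, at 0.03, and the lowest rpn-11, at -0.08 with an adjusted p of 0.318 (limma). None of these values passed the test, and these signs depend on the scaling: with sample medians set equal, the median log2 fold change became 0.08 over all genes and 0.06 over the subunit genes. The ubiquitin receptor gene rpn-1, on chromosome IV from 6906420 to 6909913 on the minus strand, had 281, 295, 288 and 286 CPM in EV + P-80, against 313, 298, 287 and 312 CPM in EV + vehicle. The groups overlapped through vehicle replicate 3, the lowest vehicle sample, which lay below P-80 replicates 2 and 3. The log2 fold change was -0.07 ± 0.035 with an adjusted p of 0.173 (limma).

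In contrast, skn-1 fell with P-80 in EV worms. The gene lies on chromosome IV, from 5651039 to 5660384 on the minus strand, with 9 exon blocks, and its counts pool all isoforms, so SKN-1A was not measured apart. It had 103, 104, 105 and 103 CPM in EV + P-80, against 119.2, 109, 114.6 and 127 CPM in EV + vehicle. All P-80 samples lay within 3 CPM of each other and below all vehicle samples, whose spread was wider. The log2 fold change was -0.18 ± 0.047 (0.886-fold, 95% interval 0.828 to 0.948), with an adjusted p of 0.0143 (limma), and an exact permutation test gave p = 0.0286, the smallest that 4 against 4 allows. The call was lost without EV + vehicle replicate 4, the highest of the vehicle samples (-0.14, adjusted p = 0.0705). It was also lost when each sample was centred on its median over all genes (-0.09, adjusted p = 0.240).

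Under ech-6 RNAi, skn-1 fell with P-80 as well. It had 100.2, 94.97, 105 and 99.9 CPM in ech-6 RNAi + P-80, against 117, 111, 119.4 and 119.6 CPM in ech-6 RNAi + vehicle. Again no P-80 sample reached any vehicle sample. The log2 fold change was -0.22 ± 0.047 (0.857-fold, 95% interval 0.801 to 0.917), with an adjusted p of 0.00790 (limma) and an exact permutation p of 0.0286. Without the library labelled ech-6 RNAi + vehicle replicate 3 it was -0.21 (adjusted p = 0.0308), and after centring on sample medians the call was lost (-0.14, adjusted p = 0.109). The effect of P-80 under ech-6 RNAi minus that in EV worms was -0.05 (95% interval -0.19 to 0.09, adjusted p = 0.934, limma), so a difference between them was not detected. Without the library labelled ech-6 RNAi + vehicle replicate 3 this value was -0.04 (adjusted p = 0.952, limma).

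Markers of several tissues also moved with P-80. Higher and lower here mean called by limma, beside 16.1% of all genes in EV worms and 7.21% under ech-6 RNAi. Of 34 sperm genes (major sperm proteins), 22 were higher in EV + P-80 than in EV + vehicle, and 16 were higher in ech-6 RNAi + P-80 than in ech-6 RNAi + vehicle. Their summed level was 2397 to 2939 CPM in EV + P-80, against 1978 to 2388 CPM in EV + vehicle, and 2747 to 3039 CPM in ech-6 RNAi + P-80, against 2217 to 2566 CPM in ech-6 RNAi + vehicle. Of 7 oocyte genes, 6 were higher in EV + P-80 (summed 2240 to 2906 CPM, against 1884 to 2319 CPM in EV + vehicle) and 0 passed in ech-6 RNAi worms (unadjusted, 0; voom, 0). All 7 oocyte genes had values above 0 with P-80 in both backgrounds (medians 0.31 in EV worms and 0.14 under ech-6 RNAi). The interaction called 0 of them by limma. The 5 other germline genes had 0 calls in either comparison (unadjusted p under 0.05 for 1 in EV worms and 0 under ech-6 RNAi; 0 by voom), and no gene of these lists was at 0 in all samples. Body wall muscle genes were higher in ech-6 RNAi + P-80 for 4 of 4 and in EV + P-80 for 2 of 4 (unc-27 and mup-2). Of 4 cuticle genes, rol-6 and col-10 were lower with P-80 in both backgrounds, and dpy-7 was lower and col-19 higher in EV + P-80. Of 5 intestinal genes only the yolk protein gene vit-2 was higher in both, a share of 20%. All 4 neuron genes had values below 0 with P-80 in both backgrounds (medians -0.10 and -0.11). Of these, snb-1 was lower in EV + P-80 (adjusted p = 0.0234, limma). Under ech-6 RNAi 0 neuron genes passed, and 1 had an unadjusted p under 0.05. The part of these markers in the fall of skn-1 was not tested.

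**Figure D2:**
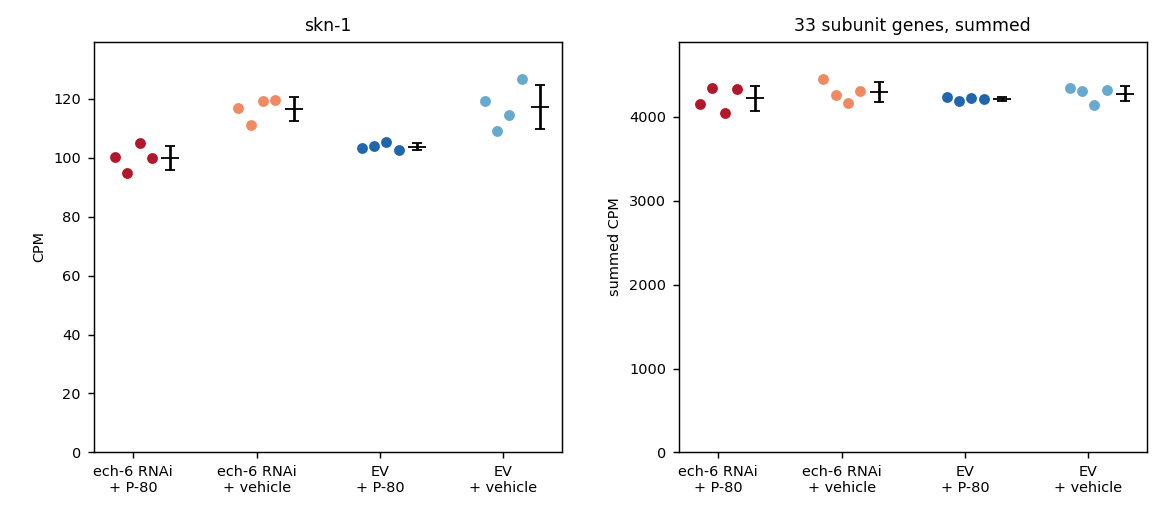
Level of skn-1 in CPM (left) and summed CPM of the 33 subunit genes (right) in each of the 16 samples, by group, with the group mean and SD (n = 4) beside the points, on axes from 0. For skn-1 the points of each P-80 group (94.97 to 105 CPM in ech-6 RNAi, 103 to 105 CPM in EV) lie below those of its vehicle group, whereas the summed subunit level overlaps between all groups.

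With P-80 under ech-6 RNAi, 0 of 33 subunit genes passed by limma, beside 7.21% of all genes. No subunit gene had an unadjusted p under 0.05, and 0 were called with voom weights. The median log2 fold change was -0.03 (all genes, -0.02), single values ran between -0.10 (pas-4) and 0.07 (rpn-13), and all 95% intervals stayed between 0.868-fold and 1.13-fold. Without the library labelled ech-6 RNAi + vehicle replicate 3 the median was -0.05, and again 0 subunit genes were called. Groups did not overlap for 2 of 33 subunit genes, pas-4 and rpn-1, beside 11.2% of all genes.

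The alpha subunit gene pas-4 had 81.9, 86.0, 83.5 and 86.3 CPM in ech-6 RNAi + P-80, against 96.8, 87.4, 86.6 and 90.2 CPM in ech-6 RNAi + vehicle. The gap between the nearest samples was 86.3 against 86.6 CPM, the second of these being the library labelled replicate 3. The log2 fold change was -0.10 ± 0.052, adjusted p = 0.333 (limma), and -0.11 without that library. For rpn-1 the values were 279, 283, 284 and 293 CPM in ech-6 RNAi + P-80, against 302, 298, 294 and 302 CPM in ech-6 RNAi + vehicle. This is a log2 fold change of -0.07 ± 0.035 (adjusted p = 0.275, limma), and -0.08 without replicate 3. The rpn-1 difference was thus -0.07 with P-80 in both RNAi backgrounds and passed the test in neither, and it was slightly above 0 in both when samples were centred on their medians (0.01 in EV worms and 0.02 under ech-6 RNAi).

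RNAi of ech-6 with vehicle left the subunit genes within the same narrow range. None of 33 passed by limma, beside 2.94% of all genes, 0 had an unadjusted p under 0.05 and 0 were called with voom weights. The median log2 fold change was 0.01 (all genes, 0.00), with single values between -0.11 (the ATPase gene rpt-5) and 0.08 (pbs-2) and 95% intervals between 0.850-fold and 1.13-fold. Without the library labelled ech-6 RNAi + vehicle replicate 3 the median was 0.02 and again 0 subunit genes were called. Groups did not overlap for 3 subunit genes, pbs-2, rpn-2 and rpn-6.2, each higher in ech-6 RNAi + vehicle, beside 13.1% of all genes.

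Of these 3, rpn-2, which encodes a scaffold subunit of the base and lies on chromosome III from 6199184 to 6202594 on the plus strand, had 391, 385, 389 and 391 CPM in ech-6 RNAi + vehicle, against 362, 383, 367 and 379 CPM in EV + vehicle. The RNAi samples were nearly equal and sat just above the highest EV sample. The log2 fold change was 0.06 ± 0.036 (adjusted p = 0.394, limma), and 0.06 without replicate 3. The gene pbs-2 had 112, 111, 112 and 118.5 CPM in ech-6 RNAi + vehicle, against 107, 106, 107 and 109.7 CPM in EV + vehicle, a log2 fold change of 0.08 ± 0.045 (adjusted p = 0.391, limma; 0.08 without replicate 3). The gene rpn-6.2 had 38.4, 37.9, 37.2 and 39.9 CPM in ech-6 RNAi + vehicle, against 37.1, 36.8, 34.8 and 37.0 CPM in EV + vehicle. Its groups were separated by 0.1 CPM (37.2 against 37.1), with a log2 fold change of 0.07 ± 0.051 and an adjusted p of 0.464 (limma; 0.09 without replicate 3).

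RNAi of ech-6 in worms fed P-80 gave a similar picture. None of 33 subunit genes passed by limma, beside 0.699% of all genes, and 0 were called with voom weights. The ATPase gene rpt-4 alone had an unadjusted p under 0.05. It lies on chromosome II, from 42207 to 46216 on the minus strand, and had 174, 176, 174 and 179 CPM in ech-6 RNAi + P-80, against 168, 162, 169 and 165 CPM in EV + P-80. All ech-6 RNAi samples were above all EV samples, with a log2 fold change of 0.08 ± 0.033 and an adjusted p of 0.377 (limma). It was the only subunit gene of 33 whose groups did not overlap, beside 4.62% of all genes. The lowest value was that of pbs-6, a beta subunit gene (-0.09, adjusted p = 0.604), and all 95% intervals stayed between 0.862-fold and 1.13-fold.

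For skn-1 no difference with ech-6 RNAi was detected. The log2 fold change was -0.01 with vehicle (95% interval -0.11 to 0.09, adjusted p = 0.956, limma) and -0.05 with P-80 (95% interval -0.15 to 0.04, adjusted p = 0.739, limma). Exact permutation tests gave p = 0.943 and p = 0.114. Without the library labelled ech-6 RNAi + vehicle replicate 3 the value with vehicle was -0.02.

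The interaction, the P-80 effect in ech-6 RNAi worms minus that in EV worms, called 0% of all genes and 0 of the 33 subunit genes by limma. At an unadjusted p under 0.05 there were 1168 genes and 0 subunit genes, and voom weights called 1 gene and 0 subunit genes. Subunit values lay between -0.11 (rpn-6.2) and 0.10 (pbs-1). All 95% intervals stayed between 0.833-fold and 1.17-fold. Without the library labelled ech-6 RNAi + vehicle replicate 3 these values were -0.13 and 0.11, and again 0 were called. The largest opposite pair of effects was that of rpn-6.2, at 0.06 with P-80 in EV worms and -0.06 under ech-6 RNAi, and neither passed the test (adjusted p = 0.511 and 0.618, limma).

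**Figure D3:**
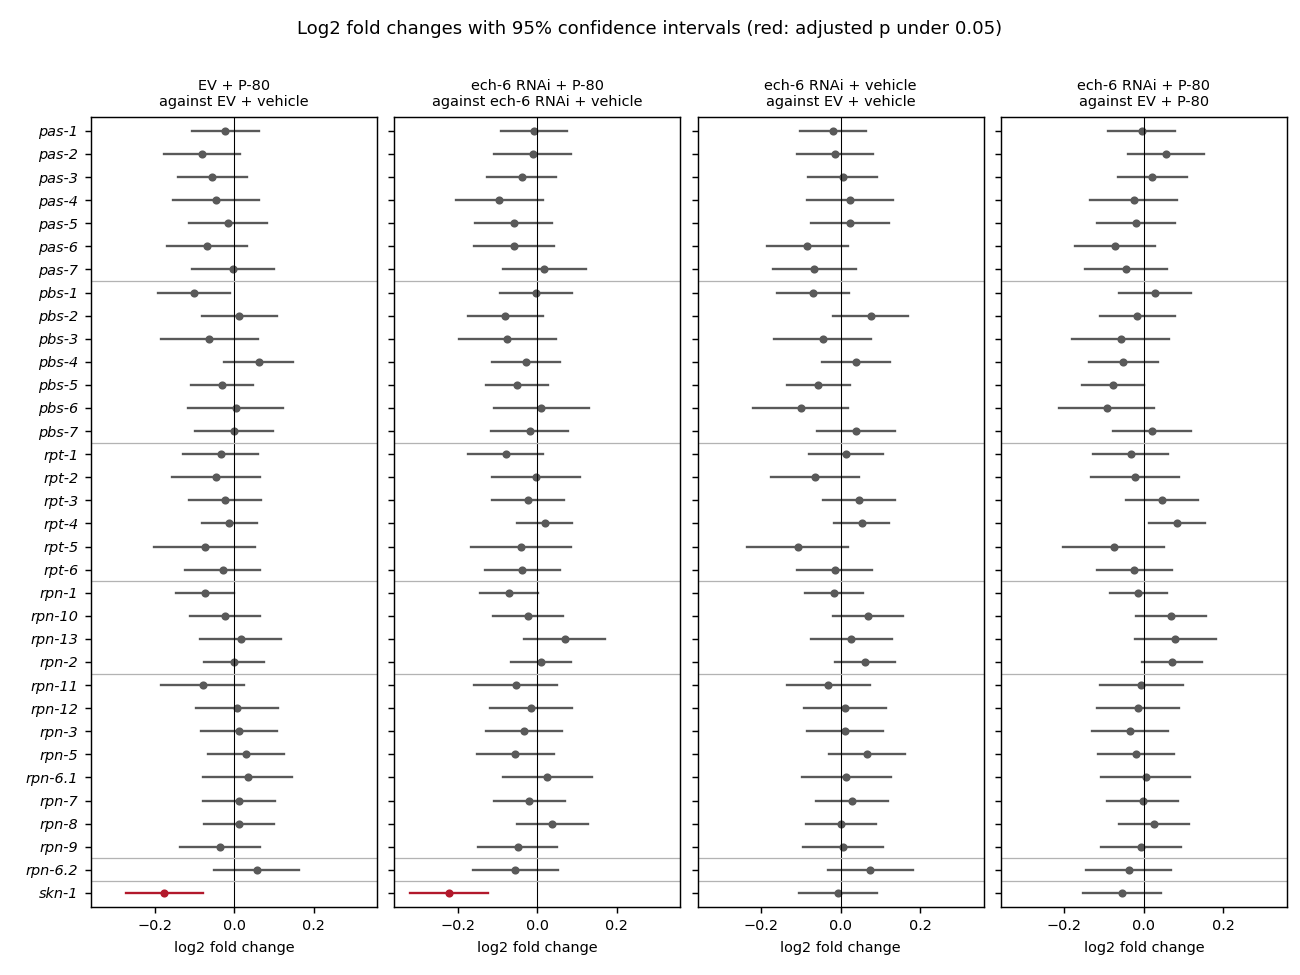
Log2 fold change (horizontal axis) of each proteasome gene and of skn-1 in 4 comparisons, with points for the estimates and bars for 95% confidence intervals from limma, red where the adjusted p is under 0.05. Only skn-1 is red, in both P-80 comparisons, while all subunit genes lie between -0.11 and 0.08.

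Summed over genes, the subunit mRNAs made up 0.389% to 0.449% of the reads on genes in each sample. They reached 4219 ± 146 CPM in ech-6 RNAi + P-80 and 4298 ± 119.1 CPM in ech-6 RNAi + vehicle, and 4216 ± 22.96 CPM in EV + P-80 and 4276 ± 92.7 CPM in EV + vehicle (SD, n = 4). The summed values of the groups overlapped, and their differences were not tested. The EV + P-80 samples were close together (4242, 4187, 4221 and 4213 CPM), within the range of the EV + vehicle samples (4343, 4304, 4139 and 4318 CPM). Across genes the gap between the highest and lowest of the 4 group means ran from 0.017 (rpn-12) to 0.15 (rpt-5) on the log2 scale, with a median of 0.071, and the SD between replicates ran from 0.026 (rpt-4) to 0.090 (rpt-5), with a median of 0.060.

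The balance of core and regulatory particle was also compared, as the mean log2 CPM of the 14 core genes minus that of the 18 regulatory particle genes without rpn-6.2. It was -0.49 ± 0.018 in ech-6 RNAi + P-80 and -0.47 ± 0.0096 in ech-6 RNAi + vehicle, and -0.46 ± 0.020 in EV + P-80 and -0.45 ± 0.017 in EV + vehicle (SD, n = 4). The single values were -0.49, -0.47, -0.48 and -0.47 in ech-6 RNAi + vehicle, against -0.42, -0.46, -0.44 and -0.46 in EV + vehicle. These groups did not overlap, by a narrow gap (-0.466 against -0.463 for the nearest samples), beside 13.1% of all genes in this comparison. The difference of the group means was -0.027 on the log2 scale. Without replicate 3 the mean in ech-6 RNAi + vehicle was -0.47. With P-80 the groups overlapped, at -0.47, -0.51, -0.49 and -0.49 in ech-6 RNAi + P-80 and -0.43, -0.47, -0.46 and -0.48 in EV + P-80, with a difference of means of -0.031. No test was made on these means, and TMM scaling cancels in them because both particles are read in the same library.

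Within groups most pairs of subunit genes were positively correlated from sample to sample. After each gene's group means were taken out, the median correlation between pairs of subunit genes over the 16 samples was 0.39, and 491 of 528 pairs were positive. It was 0.46 within the regulatory particle (without rpn-6.2), 0.34 within the core and 0.38 between the particles. For skn-1 with the subunit genes the median was -0.10, with 11 of 33 positive. These are descriptions only, since all genes of a sample share its library, scaling and worms. Pairs of other genes were not examined, so whether these correlations are particular to the subunit genes was not tested. The genes least tied to the rest were pbs-1 (median 0.13 with the other subunit genes) and pbs-4 (0.18), and the most tied were rpt-6 (0.51) and rpn-8 (0.50).

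In 6 libraries at least 27 of the 33 subunit genes lay on the same side of their group mean. In ech-6 RNAi + P-80 replicate 3, 32 of 33 subunit genes were below their group mean, by 0.056 on average on the log2 scale. The same held for 29 of 33 in the library labelled ech-6 RNAi + vehicle replicate 3 (0.047 below) and for 31 of 33 in EV + vehicle replicate 3 (0.051 below). In ech-6 RNAi + vehicle replicate 1, 29 of 33 were above, by 0.055, and in ech-6 RNAi + P-80 replicates 2 and 4, 27 of 33 were above, by 0.042 and 0.039. Total reads were 18168026, 17542228 and 27484877 in the 3 low libraries, in the order given, and 28129104, 21812234 and 17294912 in the 3 high ones. The part of depth in these levels was not tested. The same counts were not made over all genes, so whether these shifts were particular to the subunit genes was not tested. Leaving out any one of these 6 libraries left the counts of subunit genes called at 0 in all comparisons.

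**Figure D4:**
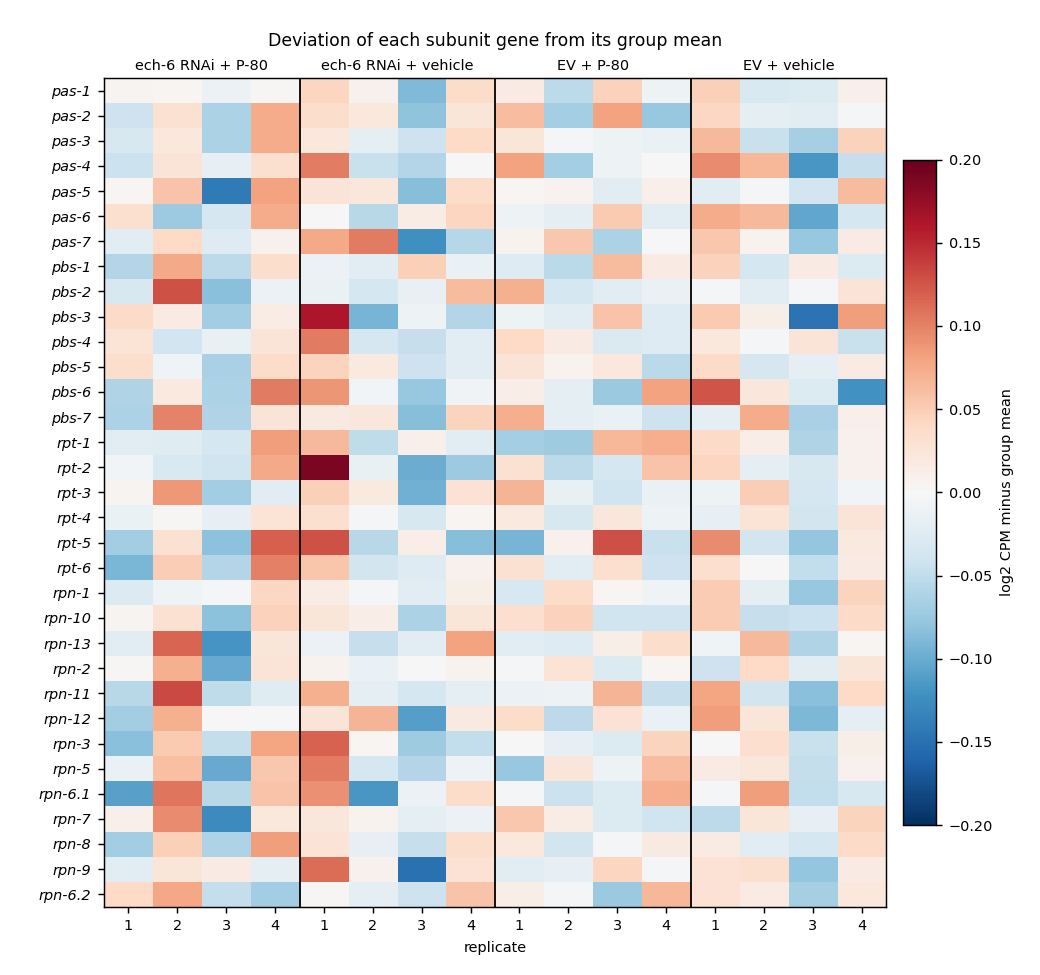
Log2 CPM of each of the 33 subunit genes (rows) minus its group mean in each of the 16 samples (columns, by group and replicate), with blue below and red above the mean. In some columns most genes take 1 colour, blue in replicate 3 of ech-6 RNAi + P-80, ech-6 RNAi + vehicle and EV + vehicle and red in replicate 1 of ech-6 RNAi + vehicle.

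Genes that act with the proteasome or with SKN-1 were read from lists chosen with earlier results of these data known. Of 11 genes of the SKN-1A pathway, including the processing enzymes png-1 and ddi-1 and the repressor wdr-23, only cdc-48.2, which encodes an unfolding ATPase, was called in any comparison. It was lower in EV + P-80 than in EV + vehicle (-0.13 ± 0.033, adjusted p = 0.0127, limma), where 16.1% of all genes were called. That call was lost without EV + P-80 replicate 4 (-0.11, adjusted p = 0.0546) and after centring on sample medians (-0.04, adjusted p = 0.570). Its near copy cdc-48.1 could share reads with it. The protease gene ddi-1 had 0.14 with P-80 in EV worms and 0.17 under ech-6 RNAi, adjusted p = 0.0812 and 0.0567 (limma), and did not pass. The other processing enzyme gene, png-1, was the lowest of the list with P-80 under ech-6 RNAi (-0.13). It was also the lowest with ech-6 RNAi on vehicle (-0.13, adjusted p = 0.237, limma) and on P-80 (-0.18, adjusted p = 0.231, limma).

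Of 5 helper genes found in the table, aip-1, ubh-4, usp-14, psmd-9 and dss-1, none passed limma's test in any of the 5 comparisons. Over all genes the shares called were 16.1% and 7.21% with P-80 in EV worms and under ech-6 RNAi. They were 2.94% and 0.699% with ech-6 RNAi on vehicle and on P-80, and 0% in the interaction. At an unadjusted p under 0.05 there was 1 helper gene, with ech-6 RNAi in worms fed P-80, and voom weights called 0. The small lid subunit gene dss-1, whose symbol falls outside the rule, had 0.13 with P-80 in EV worms (adjusted p = 0.183). Of 3 genes for ubiquitin and its activation, the activating enzyme gene uba-1 and the polyubiquitin gene ubq-1 did not pass.

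The third, ubq-2, which encodes ubiquitin fused to a ribosomal protein, was higher with P-80 in EV worms (0.14 ± 0.042, adjusted p = 0.0312, limma) and under ech-6 RNAi (0.17 ± 0.042, adjusted p = 0.0194, limma). Its values were 952, 818, 877 and 907 CPM in EV + P-80, against 843, 823, 776 and 786 CPM in EV + vehicle, and these groups overlap. In ech-6 RNAi + P-80 it had 924, 889, 863 and 885 CPM, against 810, 774, 793 and 789 CPM in ech-6 RNAi + vehicle, with no overlap. Without single libraries the EV call was lost for EV + vehicle replicates 3 and 4 and EV + P-80 replicates 1 and 4 (0.12, 0.12, 0.10 and 0.13). The ech-6 RNAi call was lost for ech-6 RNAi + vehicle replicates 2, 3 and 4 and ech-6 RNAi + P-80 replicates 1 and 2 (0.16, 0.17, 0.17, 0.15 and 0.17). With quantile normalization neither passed (adjusted p = 0.125 and 0.214).

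Among 5 detoxification genes known as SKN-1 targets, the glutathione S-transferase gene gst-4 was higher in all 4 comparisons. It had 71.9, 82.1, 69.0 and 76.0 CPM in ech-6 RNAi + P-80 and 51.7, 56.0, 55.5 and 57.7 CPM in ech-6 RNAi + vehicle, and 49.6, 45.8, 37.4 and 43.1 CPM in EV + P-80 and 35.6, 31.3, 34.3 and 30.4 CPM in EV + vehicle. The groups of each comparison did not overlap. Log2 fold changes were 0.41 (adjusted p = 0.00140) and 0.44 (adjusted p = 0.00263) with P-80 in EV worms and under ech-6 RNAi, and 0.75 (adjusted p = 2.15e-05) and 0.77 (adjusted p = 3.08e-05) with ech-6 RNAi on vehicle and on P-80 (limma). Without the library labelled ech-6 RNAi + vehicle replicate 3 the values that use it were 0.44 and 0.75. The calls of gst-10 (0.39, adjusted p = 0.00548) and nit-1 (0.46, adjusted p = 0.00943) were made only with P-80 in EV worms. That of gcs-1, which encodes the first enzyme of glutathione synthesis, was made only with ech-6 RNAi on P-80 (0.27, adjusted p = 0.00903, limma), and it was lost without the mean-variance trend (adjusted p = 0.0636) and when only the groups compared were fitted (adjusted p = 0.0853). For these 3 genes the interaction did not pass (adjusted p = 0.902, 0.707 and 0.870, limma). It compares the P-80 effect between the RNAi backgrounds, or equally the ech-6 RNAi effect between the diets. A P-80 effect was not tested against an ech-6 RNAi effect. The sign of nit-1 turned to -0.10 with P-80 under ech-6 RNAi, an interaction of -0.56. In the interaction, 1 of the 5 genes had an unadjusted p under 0.05. The gene gst-7 passed in none of the comparisons. Of the 5 genes, limma thus called 3 with P-80 in EV worms and 1 under ech-6 RNAi, beside 16.1% and 7.21% of all genes. It called 1 with ech-6 RNAi on vehicle and 2 on P-80, beside 2.94% and 0.699% of all genes.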

How the data were processed

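The authors depleted ribosomal RNA from whole-worm RNA and made libraries with a kit that marks the strand. Per the labels and the study's methods, reads were trimmed with Trimmomatic 0.32, aligned to WBcel235 with HISAT2 2.0.4 and counted with HTSeq 0.6.1, and genes with low counts were removed. The deposited values are log2 CPM after TMM scaling, although the column header says CPM: all samples share the same lowest value, and undoing the log gave whole reads for 100% of values within 0.1 reads. Depth was read from these recovered reads. Each of the 16 samples was mapped to its group by its label.

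Differences were tested with limma 3.58.1 in R 4.3.3, with 1 mean per group, an empirical Bayes trend, two-sided tests and Benjamini-Hochberg adjustment over all 19750 genes at 0.05. The script was tested on simulated data. Alternatives were voom weights on recovered reads, no trend, robust fitting, sample weights, a filter on low values, quantile normalization, centring, fits of only the groups compared, a block for the replicate number, and the omission of single samples. Pairs of replicates differed by 3.16 to 26.0 in chi-square per gene, where sampling noise gives about 1, so all were kept as separate samples. Nothing in the sources used here says that they were separate cultures, so p-values measure the spread between these samples.

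All genes with the 4 name prefixes, and skn-1, were described. Single-sample values were planned for skn-1, rpn-6.2 and called genes. No subunit gene was called, so those with separated groups, the extremes and rpn-1 were named after their values were seen. The members and lists were chosen with earlier results of these data known. Exon lengths and positions came from Ensembl release 115 (WBcel235). The gene psme-3 was not analysed here. Figures were drawn with Python 3.11.15 and matplotlib 3.10.9.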

Additional observations from a re-analysis of the deposited data

Results flagged for a closer look

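Of 168 groups of 4 samples examined, for subunit genes, skn-1 and subcomplex means, 13 held a single value far from the other 3 by Dixon's criterion. Chance alone meets this criterion in about 1 group in 20. All are log2 CPM.

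The library labelled ech-6 RNAi + vehicle replicate 3, in which ech-6 was not lowered, was lowest for pas-2 (7.03, others 7.13 to 7.15), pas-5 (7.02, others 7.13 to 7.14) and rpn-10 (6.91, others 6.98 to 6.99), and highest for pbs-1 (6.48, others 6.41 to 6.42). In ech-6 RNAi + vehicle replicate 1, pbs-4 was highest (6.73, others 6.58 to 6.60), as were rpn-11 (6.78, others 6.68 to 6.69) and the mean of the base ATPases (7.15, others 7.03 to 7.04).

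In EV + vehicle replicate 3, the lowest values were those of rpn-9 (6.71, others 6.80 to 6.82), rpn-6.2 (5.12, others 5.20 to 5.21) and the mean of the lid genes (6.91, others 6.98 to 6.99). The others were pas-6 in EV + P-80 replicate 3 (6.27, others 6.195 to 6.21), rpn-11 in ech-6 RNAi + P-80 replicate 2 (6.79, others 6.60 to 6.63) and rpt-1 in ech-6 RNAi + P-80 replicate 4 (7.26, others 7.14 to 7.15). The cause was not tested.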

How the results depend on the processing

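Counts of called subunit genes were 0 under every alternative run. Of the 34 members, skn-1 was the 1 called with P-80 in each background, and this count was 0 in both when samples were centred on their medians. Leaving out 1 sample gave 0 to 1 calls with P-80 in EV worms, with 0 without EV + vehicle replicate 4. Centring raised the median of all genes to 0.08 and 0.07 for P-80 in EV worms and under ech-6 RNAi, and those of the subunit genes to 0.06 in both. This moved the median of the subunit genes from below to above 0, so signs of small values depend on the scaling throughout. Among the genes recomputed one by one, the sign turned under centring for rpn-1 (0.013 for P-80 in EV worms and 0.015 for P-80 under ech-6 RNAi), rpn-6.2 for P-80 under ech-6 RNAi (0.030) and skn-1 with ech-6 RNAi on vehicle (0.030). The skn-1 value on vehicle ranged from -0.042 to 0.030 when single samples were left out. None of these had passed the test.

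The fit with a replicate block kept both skn-1 calls (-0.18, adjusted p = 0.0101, and -0.22, adjusted p = 0.00616, limma) and changed no other call on the members. Deviations of same-numbered samples correlated between -0.29 and 0.49. Differently numbered samples were not compared in this way, so these values cannot decide whether the numbers pair the samples. Of 372 counts recomputed, 369 kept their value within 1.5 times, as did 823 of 872 single-gene results in direction and side of the threshold. With 4 samples a group, the median SE of a subunit fold change was 0.046 on the log2 scale. Differences of more than 2 SE also failed the test after adjustment, such as pbs-1 with P-80 in EV worms (-0.10, adjusted p = 0.126, limma). Changes of this size in subunit genes could thus be missed. Whether they passed depended on the gene: cct-3 was called at -0.11 in the same comparison (adjusted p = 0.0393, limma).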

Other observations

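Other large complexes were read beside the proteasome, from lists chosen with earlier results known. Of 20 vacuolar ATPase genes, whose products acidify lysosomes and other compartments, 10 rose with P-80 in EV worms (median 0.15) and 10 in ech-6 RNAi worms (median 0.14), by limma. Over all genes 16.1% and 7.21% were called in these comparisons, and among genes at the level of the subunit genes 26.4% and 11.7%. Of 8 genes of the CCT chaperonin, which folds actin and tubulin, 3 were lower with P-80 in EV worms, and 0 passed in ech-6 RNAi worms (2 at an unadjusted p under 0.05, 0 by voom). They were cct-3 (-0.11, adjusted p = 0.0393), cct-7 (-0.13, adjusted p = 0.0208) and cct-8 (-0.17, adjusted p = 0.0144, limma), and all 3 calls were lost under centring (-0.02, -0.04 and -0.08). They were also lost without EV + vehicle replicate 1 (-0.11, -0.12 and -0.15) and without EV + vehicle replicate 4 (-0.10, -0.11 and -0.14). Without EV + P-80 replicate 2 or 4 the calls of cct-3 (-0.11 and -0.09) and cct-7 (-0.12 and -0.11) were lost, and that of cct-3 also without EV + vehicle replicates 2 and 3 and EV + P-80 replicate 1 (-0.12, -0.12 and -0.11).

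Of 78 ribosomal protein genes, 6 were called with P-80 in EV worms, a share of 7.69% beside 16.1% of all genes, and 54 of 78 had values above 0 (median 0.04). These were rpl-36, rpl-38, rpl-36.A, rps-23 and rpl-41.2, which were higher, and rpl-4, which was lower. With P-80 under ech-6 RNAi 68 of 78 had values above 0 (median 0.07), 24 had an unadjusted p under 0.05, and limma called rps-17 alone, against 5 genes with voom weights. With ech-6 RNAi on vehicle 75 of 78 had values below 0 (median -0.08), and rpl-9, rpl-11.2, rpl-25.1 and rpl-28 passed. With ech-6 RNAi on P-80 65 of 78 were below 0 (median -0.05), and rpl-41.2 passed. The share called by limma was 1.28% with P-80 under ech-6 RNAi, beside 7.21% of all genes. It was 5.13% with ech-6 RNAi on vehicle, beside 2.94% of all genes and 5.58% of genes at the level of the subunit genes. With ech-6 RNAi on P-80 it was 1.28%, beside 0.699% of all genes. The cause of the differences in ribosomal protein genes was not tested.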
